A study of Mus musculus with 15 samples.

Results

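Tumors formed by control cells were compared in 2 forms, as intact tissue and as tumor cells isolated from tissue. The comparison used 6 of the 15 RNA-seq libraries of the series, 3 of bulk tumors and 3 of sorted tumor cells, and all 24891 genes kept from the expression table. Libraries were chosen by their labels for sample type and hairpin alone, and no measured value entered the choice. Every tumor was grown under the skin of wild-type C57BL/6J mice from 105K cells, a Tsc2-/- line that came from a kidney tumor of a Tsc2+/- mouse. These cells carried a stably expressed non-targeting hairpin, named sh-NC, so the loss of Tsc2 and the control hairpin were common to both groups. The study's methods name young male mice as hosts of subcutaneous tumors and state their age in weeks, while the labels give neither age nor sex. For the sorted libraries, tumors were dissociated with enzymes and non-tumor cells were removed with magnetic antibody beads. The antibodies in that depletion mix are not given in the sources used here. A further 3 bulk and 3 sorted libraries came from tumors of 105K cells with sh-B7-H3 (1), a hairpin against B7-H3 (gene CD276), in the same hosts. They share no library with the controls and are used below as another pair of the same contrast. The model is limited to a single cell line at a subcutaneous site, and the labels do not say whether replicates came from separate animals, so p-values measure only the spread between these libraries.

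A solid tumor holds cancer cells together with host cells, which include macrophages and other leukocytes, blood vessel cells and their pericytes, fibroblasts, and blood itself. RNA from intact tissue mixes all of them, whereas RNA from isolated cancer cells carries those of the cancer cells and of whatever host cells remain. Isolation adds its own handling: enzymatic digestion at warm temperature is known in many tissues to switch on immediate-early genes, which are transcribed within minutes of a stimulus without new protein synthesis. In this design, dissociation and removal of host cells always came together, so their effects cannot be told apart. In bulk tissue, fewer cells of a type also cannot be told apart from less RNA per cell.

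The deposited values are FPKM, fragments scaled by transcript length and library size, here divided by 1 factor per library and called scaled FPKM. Read totals are not given, and from the smallest nonzero values the relative depth of the 6 libraries was 0.633 to 1. The microRNA gene MIR6236 took very unequal parts of the summed FPKM: 30.0%, 41.6% and 79.7% in bulk replicates 1 to 3 and 9.43%, 51.6% and 6.24% in sorted replicates 1 to 3. Across 11424 genes, Pearson's r was 0.969 to 0.982 between bulk libraries, 0.954 to 0.970 between sorted libraries and 0.884 to 0.930 between the groups. Genes are not independent replicates. Sorted replicate 1 differed most from its group in its effect on the test, since leaving it out raised the number of changed genes from 1927 to 4442. The hairpin target CD276, at 20.8, 23.3 and 23.6 scaled FPKM in bulk and 34.1, 20.1 and 17.3 in sorted libraries, overlapped between the groups (log2 fold change -0.02, limma adjusted p = 0.965). In the libraries labelled sh-B7-H3 (1) it read 22.4, 17.9 and 24.5 in bulk and 7.32, 14 and 11.5 in sorted cells (log2 fold change 0.95, limma adjusted p = 0.015). The sorted libraries with that label lay below all sorted control libraries, whereas the bulk ones overlapped with bulk controls, so in bulk the target was not visibly reduced, and sh-B7-H3 (1) stands below for libraries labelled so. The exons lost in the Tsc2-/- cells are not given in the sources used here, and TSC2 reads totalled 4.28, 4.68 and 4.03 scaled FPKM in bulk and 4.15, 2.57 and 1.94 in sorted libraries (log2 fold change 0.49, limma adjusted p = 0.134).

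Of 11424 genes tested, 1187 were higher in bulk tumors (10.4% of those tested) and 740 were lower (6.48%), at an adjusted p below 0.05 with limma on log2(scaled FPKM + 1). All log2 fold changes given here are bulk minus sorted on that scale, which understates the change of low genes. The 3 bulk libraries all lay above the 3 sorted libraries for 2431 genes (21.3% of those tested) and all lay below them for 1933 (16.9%), and every changed gene was among these. The higher genes reached further: 487 exceeded 1 log2 unit and 90 exceeded 3, against 58 and 6 of the lower genes. Of the 1187 higher genes, 408 reached the minimum of 1 scaled FPKM only in bulk libraries, so those genes could pass the filter only by being high in bulk. The median log2 fold change of all genes tested was 0.04. In the plot of all genes, macrophage and hemoglobin transcripts stand at the top and immediate-early and muscle transcripts at the bottom.

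**Figure D1:**
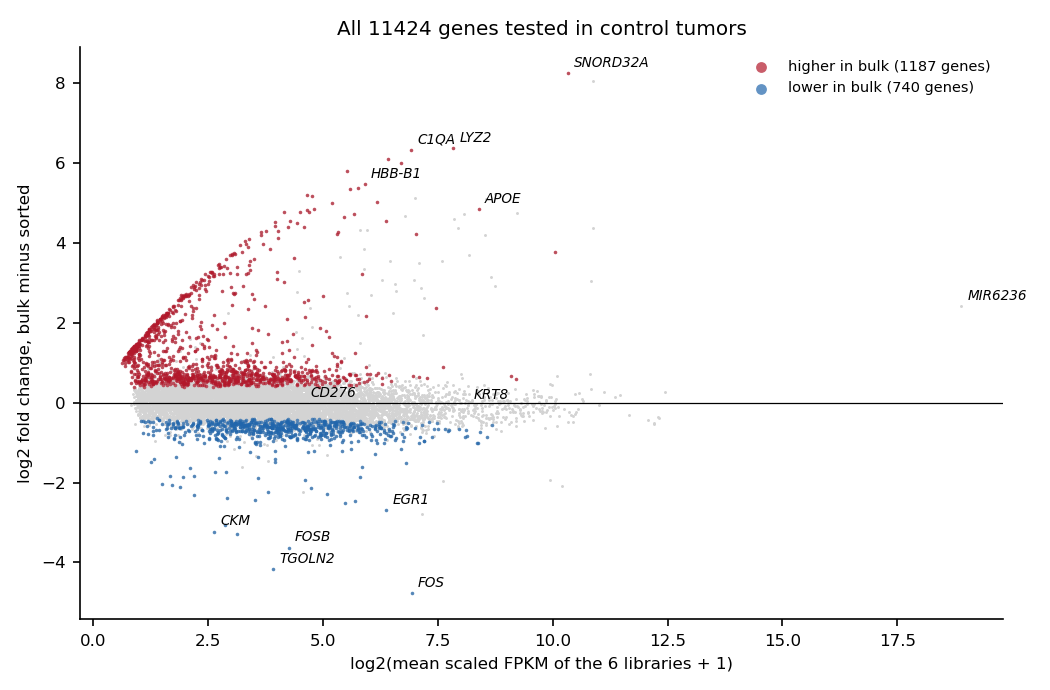
Each point is a gene, placed by its mean level over the 6 control libraries (horizontal axis, log2 of scaled FPKM + 1) and by its log2 fold change, bulk minus sorted (vertical axis). Red points are the 1187 genes higher in bulk, blue points the 740 lower in bulk, grey points genes with an adjusted p of 0.05 or more. LYZ2 at 6.37 and FOS at -4.77 mark the 2 ends among well-expressed protein-coding genes.

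Leukocyte transcripts were abundant in bulk tumors and nearly gone from sorted cells. All 10 pan-leukocyte genes were higher in bulk, against 10.4% of all genes tested, with a median log2 fold change of 2.70. The summed level of the list in sorted cells was 1.66% of that in bulk. Since 8 of the 10 passed the minimum only through bulk, this count describes the sort and is not independent support for it. PTPRC, which encodes the leukocyte common antigen CD45, stood at 5.5, 5.29 and 6.39 scaled FPKM in the 3 bulk libraries and 0.145, 0.0168 and 0.0442 in the 3 sorted ones. The groups were far apart (log2 fold change 2.65, SE 0.12, limma adjusted p = 5.96e-06). LAPTM5, a lysosomal membrane protein of blood cells, ran at 40.1, 48.8 and 54.5 scaled FPKM in bulk and 0.60, 0.115 and 0.251 in sorted libraries (log2 fold change 5.21, limma adjusted p = 5.32e-06). CD52, a glycoprotein of lymphocytes and monocytes, read 74.9, 88 and 117 against 2.48, 0.424 and 1.39 (log2 fold change 5.34, limma adjusted p = 2.03e-05). CORO1A, an actin regulator of leukocytes, read 21.2, 29.6 and 34.7 against 0.366, 0.346 and 0.322 (log2 fold change 4.43, limma adjusted p = 5.32e-06). Sorted replicate 1 held the most of each of these 4 transcripts among sorted libraries.

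Macrophage genes were among those with the largest changes. Of 20 listed genes, 19 were tested and 18 were higher in bulk, against 10.4% of all genes tested, and none was lower. The median log2 fold change was 4.05 and the sorted sum 4.22% of bulk. Of the 19, 10 passed the minimum only through bulk, so their count is not independent support. The defining markers ADGRE1 (F4/80) and CSF1R (the receptor for macrophage colony-stimulating factor) stood at 8.75, 11.6 and 12.8 and 21.2, 27.6 and 29.4 scaled FPKM in bulk. In sorted cells they read 0.183, 0.0567 and 0.0186 and 1.3, 0.822 and 0.569, a log2 fold change of 3.46 (limma adjusted p = 5.96e-06) and 3.84 (limma adjusted p = 8.11e-06). Both markers were thus low in sorted cells but not at 0. The largest changes were those of LYZ2, C1QA, C1QC and C1QB. LYZ2, the macrophage lysozyme gene, at chr10:117277541-117282272, read 298, 424 and 633 in bulk and 6.02, 2.12 and 5.48 in sorted libraries (log2 fold change 6.37, SE 0.37, limma adjusted p = 1.88e-05). The 3 chains of complement C1q lie next to each other on chromosome 4, from 136880126 to 136898844 in GRCm38. C1QA read 191, 238 and 286 against 2.74, 1.39 and 1.82 scaled FPKM (log2 fold change 6.33, SE 0.21, limma adjusted p = 5.32e-06), C1QB changed by 6.01 (limma adjusted p = 5.51e-06) and C1QC by 6.11 (limma adjusted p = 1.86e-05). The 3 chains thus fell to nearly the same extent in sorted cells, with standard errors of 0.21 to 0.35. TYROBP and FCER1G, adaptor proteins of myeloid activating receptors, changed by 5.80 (limma adjusted p = 5.32e-06) and 5.38 (limma adjusted p = 5.32e-06). APOE, a lipid carrier made by macrophages and other cells, was still at 22.8, 16.3 and 23.6 in sorted libraries against 420.0, 712 and 813 in bulk (log2 fold change 4.85, limma adjusted p = 1.58e-05). CD14, the lipopolysaccharide coreceptor, was the single tested member without a call, at 35.4, 36 and 36.8 in bulk and 18.8, 26.8 and 33.1 in sorted cells (log2 fold change 0.48, limma adjusted p = 0.133); it was named after its values were seen.

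In the other myeloid lists fewer members were tested, and most of these were higher in bulk, where 10.4% of all genes tested were higher. Of the members tested, 4 monocyte, 3 dendritic cell, 4 neutrophil and 4 mast cell genes passed the minimum only through bulk. The counts of calls therefore describe the sort and are not independent support for it. Among monocyte genes, 4 of 6 tested were higher in bulk and none lower. CCR2, the receptor for the chemokine CCL2, read 3.46, 5.11 and 6.58 in bulk and 0.146, 0.0619 and 0.0406 in sorted libraries (log2 fold change 2.45, limma adjusted p = 8.35e-05), and ITGAM (CD11b) changed by 3.26 (limma adjusted p = 5.32e-06). LY6C2 did not follow, with 149, 121 and 172 scaled FPKM in bulk and 84.3, 102 and 144 in sorted cells (log2 fold change 0.44, limma adjusted p = 0.218). The list as a whole summed to 72.3% of bulk in sorted cells, and most of that sum was LY6C2. Of dendritic cell genes, 3 of 4 tested were higher in bulk, ITGAX (CD11c), FSCN1 (the actin bundler fascin) and BATF3, with log2 fold changes of 2.67, 2.38 and 0.79 (limma adjusted p = 6.02e-06, 8.23e-05 and 0.0054). Of neutrophil genes, 4 of 5 tested were higher in bulk, and the lowest log2 fold change of the 5 was 0.27. The neutrophil list summed to 62.9% of bulk in sorted cells. S100A8 and S100A9, which encode the calprotectin subunits, read 2.3, 5.5 and 6.08 and 2.25, 3.34 and 3.84 in bulk and 0.683, 0 and 0.445 and 0.241, 0 and 0.175 in sorted cells (log2 fold changes 1.99 and 1.85, limma adjusted p = 0.00503 and 0.000218). Mast cell proteases were low but well separated: CPA3, CMA1, MCPT4 and TPSB2 rose by 1.40, 1.69, 1.66 and 2.25 in bulk (limma adjusted p = 0.000238, 0.000391, 0.00375 and 0.000162). MS4A2, the beta chain of the high-affinity IgE receptor, went the other way. It read 10.1, 12.4 and 5.19 in bulk and 36.1, 49.4 and 26.9 in sorted libraries (log2 fold change -1.94, limma adjusted p = 0.00609), while the proteases were near 0 in sorted cells. The mast cell list summed to 170% of bulk in sorted cells, and most of that sum was MS4A2.

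Lymphocyte transcripts were too low to be tested in these tumors. None of 17 T cell genes, 13 NK and cytotoxic genes and 9 B cell genes found in the table reached 1 scaled FPKM in 3 libraries. CD3E, a chain of the T cell receptor complex, read 0.341, 0.586 and 0.262 in bulk and was listed at 0 in all 3 sorted libraries. KLRD1 (CD94) and NKG7, both of cytotoxic lymphocytes, read 0.538, 0.863 and 0.355 and 0.528, 0.537 and 0.696 in bulk and were also listed at 0 in every sorted library. The NK list summed to 0.238% of its bulk level in sorted cells, the T cell list to 28.9% and the B cell list to 41.1%. These sums rest on values below 1 scaled FPKM, so no difference was tested.

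Vessel transcripts were also much lower in sorted cells. Of 22 endothelial genes, 16 were tested and 15 were higher in bulk, against 10.4% of all genes tested. Of the 16, 14 passed the minimum through bulk only. The list had a median log2 fold change of 2.07 and a sorted sum at 8.38% of bulk. CDH5, the vascular endothelial cadherin, read 7.08, 9.22 and 12.3 in bulk and 0.10, 0.0554 and 0.0218 in sorted libraries (log2 fold change 3.29, limma adjusted p = 1.66e-05). PECAM1 (CD31) read 6.58, 8.94 and 11.9 against 0.152, 0.119 and 0.0487 (log2 fold change 3.16, limma adjusted p = 2.22e-05). PLVAP, which builds the diaphragms of fenestrated capillaries, read 10.8, 14.1 and 16.3 against 1.26, 1.11 and 1.11 (log2 fold change 2.75, limma adjusted p = 1.96e-05). In each of these 3 genes, bulk replicate 3 was the highest library and bulk replicate 1 the lowest. APLN, the ligand apelin, was the tested member without a call (10.4, 6.5 and 15.4 in bulk, 4.82, 6.62 and 4.88 in sorted cells, log2 fold change 0.81, limma adjusted p = 0.0801). Of the pericyte and smooth muscle list, 6 of 9 tested were higher in bulk, and 5 of the 9 passed the minimum only through bulk. RGS5, a G protein regulator of pericytes, read 8.4, 8.42 and 11.2 in bulk and 0.156, 0.226 and 0.0919 in sorted libraries (log2 fold change 3.15, limma adjusted p = 5.96e-06), and MCAM (CD146) changed by 2.80 (limma adjusted p = 1.99e-05). ACTA2, smooth muscle actin, stayed high in sorted cells, 60.4, 96.9 and 66.1 against 87, 107 and 112 in bulk (log2 fold change 0.47, limma adjusted p = 0.15). Lymphatic genes were below the minimum, and the list summed to 8.39% of bulk in sorted cells.

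Fibroblast and matrix genes split. Of 17 fibroblast genes tested, 9 were higher in bulk and 1 was lower, where 10.4% of all genes tested were higher and 6.48% lower. Of the 17, 2 passed the minimum only through bulk and 1 only through sorted libraries. The median log2 fold change was 0.80 and the sorted sum 52.4% of bulk. COL1A1, the alpha-1 chain of type I collagen, read 32.1, 64.4 and 31.1 in bulk and 8.88, 3.44 and 6.61 in sorted libraries (log2 fold change 2.57, SE 0.36, limma adjusted p = 0.0026). COL3A1 read 19.5, 36.8 and 22.5 against 10.9, 6.31 and 12.7 (log2 fold change 1.31, limma adjusted p = 0.0228), and POSTN, the matrix protein periostin, 40.3, 71.9 and 46.1 against 14.4, 17.3 and 15.2 (log2 fold change 1.65, limma adjusted p = 0.00171). Bulk replicate 2 was the highest library for all 3. DCN, the proteoglycan decorin, overlapped widely, with 6.38, 6.72 and 50.8 in bulk and 29.4, 17.2 and 47.4 in sorted cells (log2 fold change -1.06, limma adjusted p = 0.349). The called member that was lower in bulk was PI16, a marker of adventitial fibroblasts, at 0.471, 0.479 and 0.666 in bulk and 5.47, 2.05 and 7.94 in sorted cells (log2 fold change -1.87, limma adjusted p = 0.0111). PI16 was named after its values were seen and passed the minimum only through sorted libraries. The 9 higher genes were 5 without bulk replicate 2, 6 without bulk replicate 3 and 5 without sorted replicate 2, and the lower ones were 0 without bulk replicate 2, 3 without bulk replicate 3 and 4 on FPKM as deposited, without the scaling factors. Of 12 basement membrane genes tested, 2 were higher in bulk, or 6 without sorted replicate 1. Since 2 of the 12 passed the minimum only through bulk, the count of 2 is not read as a result about the list. The sorted sum of the list was 81.2% of bulk. COL4A1 read 74.8, 109.8 and 114 in bulk and 84.5, 57.1 and 48.9 in sorted libraries (log2 fold change 0.65, limma adjusted p = 0.104). None of 7 adipocyte genes tested was called by limma (2 at an unadjusted p below 0.05), and FABP4, the adipocyte fatty acid carrier, read 13.7, 42.1 and 47.9 against 7.73, 6.27 and 15.6 (log2 fold change 1.63, limma adjusted p = 0.0557). None of 2 keratinocyte and 3 Schwann cell genes tested was called by limma (0 and 1 at an unadjusted p below 0.05).

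Blood and Y-linked markers were higher in bulk. All 3 tested genes of the erythroid and platelet list were called, where 10.4% of all genes tested were higher in bulk. Of the 3, 2 passed the minimum only through bulk. HBB-B1 and HBA-A1, adult globin genes, read 60.8, 50.5 and 239 and 42.4, 28.2 and 142 in bulk, with bulk replicate 3 far above the other 2. In sorted cells they read 1.19, 1.03 and 0.938 and 1.0, 0.475 and 0.893, a log2 fold change of 5.48 (limma adjusted p = 0.000241) and 4.99 (limma adjusted p = 0.000418). Globin genes have near-identical copies, and how reads were divided among them is not given in the sources used here. EIF2S3Y, a gene of the Y chromosome, read 1.68, 1.92 and 1.75 in bulk and 0.0853, 0.226 and 0.262 in sorted libraries (log2 fold change 1.23, limma adjusted p = 0.00019). It passed the minimum only through bulk. DDX3Y, also Y-linked, read 0.978, 0.982 and 1.19 against 0.114, 0.0378 and 0.155 and fell short of the minimum for testing. XIST, the RNA that silences an X chromosome in female cells, was present in all 6 libraries at 13.4, 8.07 and 3.92 in bulk and 5.78, 4.92 and 3.98 in sorted cells, with overlap (log2 fold change 0.56, limma adjusted p = 0.302). The Y-linked genes and XIST were thus both present in bulk, and in sorted cells XIST exceeded either Y-linked gene in all 3 libraries.

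**Figure D2:**
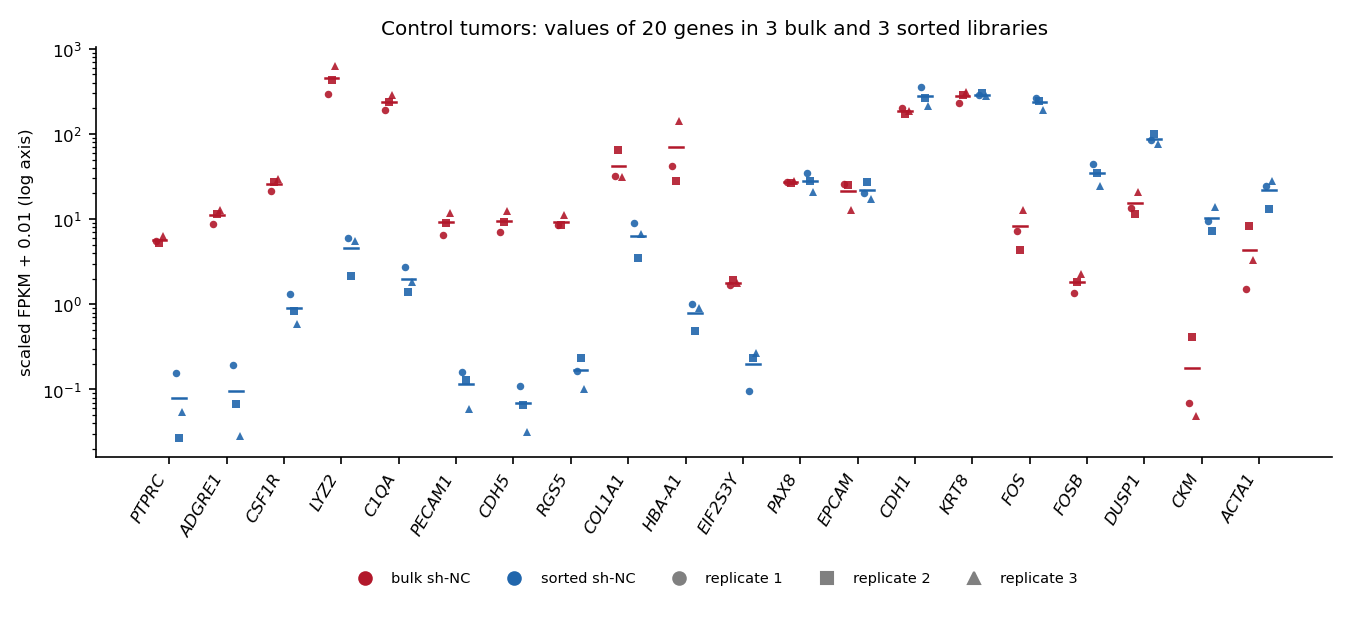
Scaled FPKM (log axis, 0.01 added) of marker genes in each control library, red for bulk and blue for sorted, with the replicate shown by the marker shape and the group mean by a short line. From left to right stand leukocyte and macrophage, vessel and matrix, globin and Y-linked genes, then renal and epithelial genes, then immediate-early and muscle genes. The bulk libraries lie above the sorted ones from PTPRC to EIF2S3Y, the groups overlap at PAX8, EPCAM and KRT8, and sorted libraries lie above for CDH1, FOS, FOSB, DUSP1, CKM and ACTA1.

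Few genes of the renal lineage and of epithelia passed the test between the 2 forms. Over all genes tested, 10.4% were higher in bulk and 6.48% lower. The 105K cells express transcription factors of the renal lineage and epithelial junction genes. None of 11 renal factors tested was called by limma (1 at an unadjusted p below 0.05), with a median log2 fold change of 0.12 and a sorted sum at 95.3% of bulk. PAX8, a factor of the renal lineage, read 27.5, 26.6 and 28.1 in bulk and 34.9, 27.8 and 20.8 in sorted libraries (log2 fold change 0.01, SE 0.18, limma adjusted p = 0.978). GATA3 read 33.2, 24.9 and 28.3 against 29.6, 18.9 and 18.2 (log2 fold change 0.39, limma adjusted p = 0.229). A missed threshold does not show that these levels were equal, and the standard errors give the size that could be seen. Of 30 epithelial genes tested, 1 was higher in bulk and none was lower, with a median log2 fold change of 0.12 and a sorted sum at 108% of bulk. CDH1, the epithelial cadherin, was at 203, 173 and 184 in bulk and 358, 262 and 210.5 in sorted cells, with every sorted library above every bulk library but no call (log2 fold change -0.54, SE 0.21, limma adjusted p = 0.122). KRT8, a keratin of simple epithelia, read 228, 288 and 315 against 287, 299 and 277 (log2 fold change -0.07, limma adjusted p = 0.819), and the surface adhesion molecule EPCAM 25.9, 25.1 and 12.8 against 20.3, 27.5 and 17.3 (log2 fold change -0.07, limma adjusted p = 0.897). The called gene was SPINT1, a serine protease inhibitor of epithelia, named after its values were seen, at 9.3, 10.7 and 7.5 against 4.3, 4.56 and 2.72 (log2 fold change 1.07, limma adjusted p = 0.0102). None of 3 nephron segment genes, 6 tubule injury genes and 9 genes of the TSC-mTORC1 and B7-H3 axis was called by limma, and 1, 0 and 1 of them had an unadjusted p below 0.05. Without sorted replicate 1, 3 renal factors, 3 epithelial genes and 2 genes of that axis were higher in bulk, and without bulk replicate 2 no epithelial gene was.

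Mesenchymal genes were expressed together with the epithelial ones. VIM (vimentin) and FN1 (fibronectin), both abundant, read 1079, 1231 and 1287 and 1412, 1357 and 1222 in bulk. In sorted cells they read 1528, 1444 and 1244 and 2848, 1217 and 938, with log2 fold changes of -0.23 and -0.16 (limma adjusted p = 0.481 and 0.816). High levels of both therefore persisted after host cells were removed, and FN1 in sorted replicate 1 was far above the other 2 sorted libraries. Of 9 genes of this list tested, 2 were higher in bulk and none lower, where 10.4% of all genes tested were higher. Since 2 of the 9 passed the minimum only through bulk, this count is not read as a result about the list. The 2 higher genes were SNAI1 and PRRX1, both transcription factors and both named after their values were seen (log2 fold changes 0.93 and 0.64, limma adjusted p = 0.00782 and 0.0198). A single one was called without bulk replicate 2, bulk replicate 3 or sorted replicate 2.

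**Figure D3:**
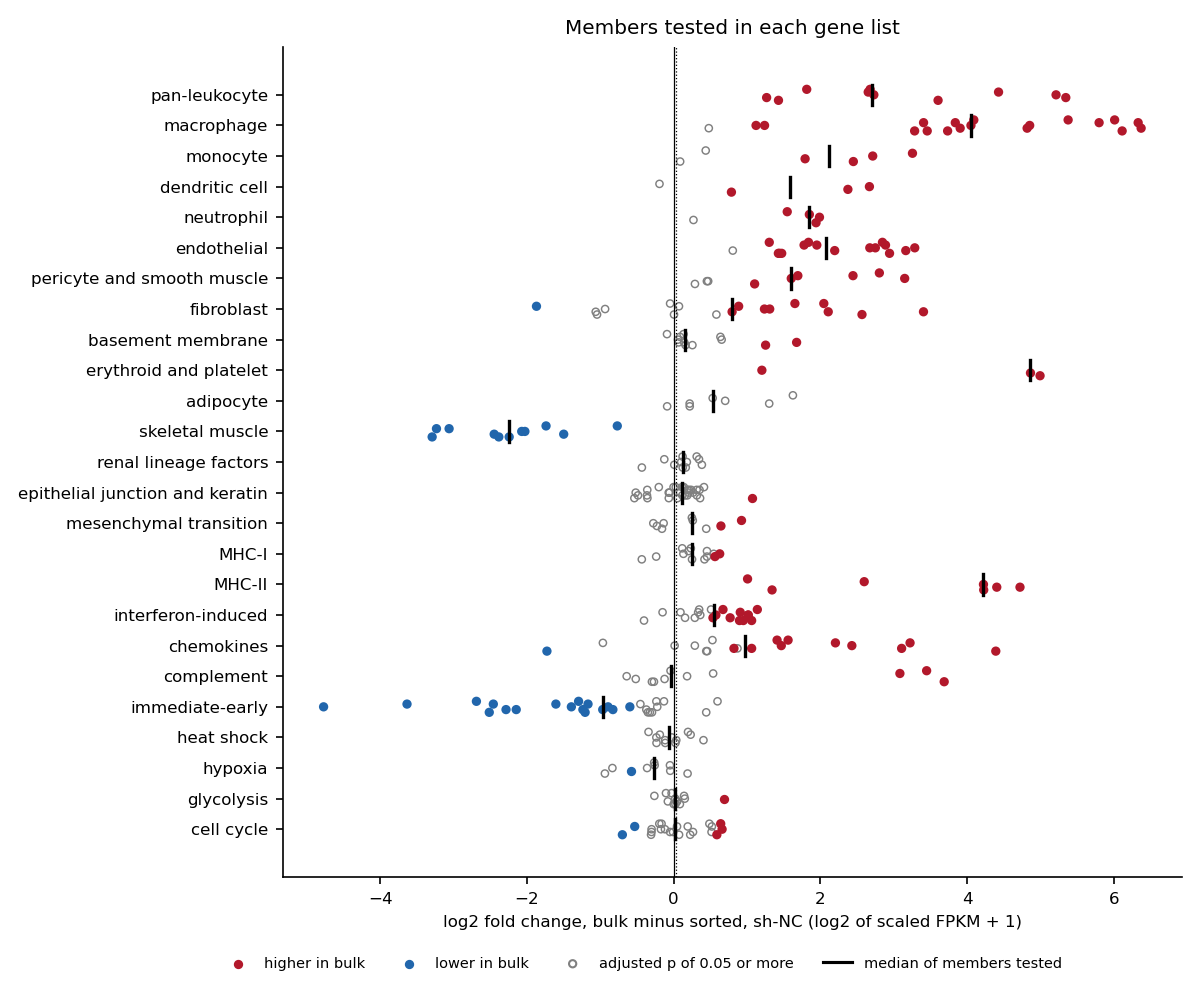
Every tested member of 25 gene lists is shown at its log2 fold change, bulk minus sorted, in control tumors (horizontal axis). Filled red and blue points passed an adjusted p of 0.05 in either direction, open points did not, black bars are list medians, and the dotted line is the median of all genes at 0.04. Leukocyte, macrophage, endothelial and MHC-II members lie to the right, muscle and immediate-early members to the left, and renal and epithelial members around 0.

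Antigen presentation differed by class. MHC-II molecules present peptides to CD4+ T cells and are made mainly by macrophages, dendritic cells and B cells, while MHC-I molecules are made by nearly all cells. All 7 MHC-II genes tested were higher in bulk control tumors, against 10.4% of all genes tested, and 1 of the 7 passed the minimum only through bulk. The median log2 fold change was 4.22 and the sorted sum 5.48% of bulk. H2-AA, an alpha chain of MHC-II at chr17:34282744-34287823, read 53.3, 139 and 103 in bulk and 3.92, 1.82 and 2.09 in sorted libraries (log2 fold change 4.72, SE 0.36, limma adjusted p = 6.93e-05). Its partner H2-AB1 read 38.9, 106 and 76.2 against 5.1, 1.66 and 2.12 (log2 fold change 4.22, limma adjusted p = 0.000302), and the invariant chain CD74 152, 338 and 247 against 22.4, 8.33 and 7.99 (log2 fold change 4.23, limma adjusted p = 0.000321). Bulk replicate 2 was the highest and bulk replicate 1 the lowest bulk library for all 3 genes. By contrast, the median of 13 MHC-I genes was 0.25. Of these, 2 were higher in bulk and none lower, where 10.4% of all genes tested were higher, so the count is not read as a result about the list. The 2 were the peptide transporter TAP2 (0.56, limma adjusted p = 0.0175) and the loading factor TAPBP (0.63, limma adjusted p = 0.0444), both named after their values were seen. These calls were 0 without any 1 of the 3 bulk libraries or sorted replicate 2, 0 on FPKM as deposited and scaled by the sum without MIR6236, and 5 without sorted replicate 1. The MHC-I light chain B2M read 3833, 3118 and 3988 in bulk and 5956, 5221 and 3777 in sorted cells (log2 fold change -0.43, limma adjusted p = 0.363).

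Interferon-induced genes stood in between. Of 20 genes, 11 were higher in bulk and none lower, against 10.4% and 6.48% of all genes tested. The median log2 fold change was 0.56, and sorted cells kept 65.8% of the summed bulk level. ISG15, a ubiquitin-like modifier, read 57.8, 53.1 and 48.3 in bulk and 16.8, 25.9 and 29.5 in sorted libraries (log2 fold change 1.14, limma adjusted p = 0.00997). IRF7, a regulator of type I interferon, read 62.4, 61.2 and 41.6 against 26.8, 28.1 and 24.1 (log2 fold change 1.02, limma adjusted p = 0.00874), and IFIT3 59.8, 46.9 and 44.9 against 23.8, 31.4 and 24.1 (log2 fold change 0.91, limma adjusted p = 0.0109). IIGP1, a GTPase induced by interferon gamma, was not called and overlapped between the groups (34.1, 23.7 and 19.96 against 40.4, 30.7 and 31, log2 fold change -0.40, limma adjusted p = 0.219). The count fell to 4 without bulk replicate 2, to 6 without bulk replicate 1 or sorted replicate 2, to 7 scaled by the sum without MIR6236 and to 1 on FPKM as deposited.

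The difference of the MHC-II genes was not the same in the other pair. In the sh-B7-H3 (1) pair, none of 8 MHC-II genes tested was higher in bulk and 1 was lower, where 21.1% of all genes tested were higher and 17.1% lower, and the list median was -0.30. H2-AA there read 409.5, 527 and 154 in bulk and 544, 217 and 240.5 in sorted libraries (log2 fold change 0.08, limma adjusted p = 0.914). The difference between the 2 pairs was tested as an interaction over 12 libraries, and 56 of 12071 genes passed (0.464%), of which 6 were MHC-II genes. For H2-AA the interaction was 4.64 (SE 0.70, limma adjusted p = 0.0192), for CD74 4.67 (limma adjusted p = 0.0192) and for H2-AB1 4.05 (limma adjusted p = 0.0327). CD74 read 1476, 1558 and 473 in bulk and 1996, 1119 and 1228 in sorted sh-B7-H3 (1) libraries. All sh-B7-H3 (1) values of both genes were thus above all sh-NC values, and by a wider margin in sorted cells than in bulk. Interferon-induced genes had 0 higher and 5 lower in bulk in that pair, and 0 of 20 passed the interaction test with limma, where 16 had an unadjusted p below 0.05.

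Ligands and receptors that link tumor and host cells differed in how far they were kept after sorting. Of 18 chemokines tested, 10 were higher in bulk and 1 was lower, where 10.4% of all genes tested were higher and 6.48% lower. Of the 18, 5 passed the minimum only through bulk. CCL6 and CCL7, ligands of myeloid chemokine receptors, read 32.9, 23.4 and 49.4 and 24.2, 20.1 and 38.8 in bulk and 0.802, 0.545 and 0.626 and 1.79, 1.91 and 3.06 in sorted libraries (log2 fold changes 4.39 and 3.11, limma adjusted p = 1.71e-05 and 0.000112). CCL2, the ligand of CCR2, was not called and stayed well expressed in sorted cells (40.3, 38.5 and 82.3 in bulk, 22.5, 25.8 and 34.3 in sorted, log2 fold change 0.87, limma adjusted p = 0.084). The member lower in bulk was CXCL1, a neutrophil chemokine named after its values were seen, at 1.92, 2.19 and 1.39 against 4.94, 12.1 and 9.33 (log2 fold change -1.73, limma adjusted p = 0.00587). CSF1, the growth factor that binds CSF1R, read 42, 42.3 and 36.8 in bulk and 44, 28.9 and 27.3 in sorted cells (log2 fold change 0.30, limma adjusted p = 0.318). The pair was therefore uneven: the transcript of the ligand was kept in sorted cells at 82.7% of its bulk mean and that of the receptor at 3.45%. VEGFA, the vascular growth factor, was kept in the same way (61.4, 50.2 and 59.9 in bulk, 69.5, 76.6 and 59.8 in sorted cells, log2 fold change -0.26, limma adjusted p = 0.264). KDR, its receptor on endothelium, named after its values were seen, read 1.42, 1.58 and 1.47 against 0.0133, 0 and 0.00962 (log2 fold change 1.30, limma adjusted p = 6.42e-05). KDR passed the minimum only through bulk. Among 15 ligands of fixed ligand and receptor pairs, 5 were higher and 1 lower in bulk, and among 14 receptors, 5 were higher and none lower. The 5 ligands became 2 without bulk replicate 2, bulk replicate 3 or sorted replicate 2 and 3 without bulk replicate 1, and the 5 receptors became 9 without sorted replicate 1.

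The complement and checkpoint genes called were all higher in bulk, where 10.4% of all genes tested were higher and 6.48% lower. Of 11 complement genes tested outside the C1q chains, 3 were higher in bulk, and these 3 passed the minimum only through bulk. Properdin (CFP) read 16.2, 15.9 and 22.3 in bulk and 0.796, 0.674 and 0.731 in sorted libraries (log2 fold change 3.45, limma adjusted p = 5.96e-06), and the receptors C5AR1 and C3AR1, named after their values were seen, changed by 3.69 and 3.08 (limma adjusted p = 5.32e-06 and 5.32e-06). C3 itself was not called, with every sorted library above every bulk library (112, 93.5 and 112 in bulk, 249, 145 and 124 in sorted cells, log2 fold change -0.64, limma adjusted p = 0.126). Of 9 checkpoint ligands tested, 2 were called, both higher in bulk, and 1 of the 9, CD86, passed the minimum only through bulk. The 2 called were CD86 and ICOSL, ligands of T cell costimulatory receptors, named after their values were seen (log2 fold changes 1.99 and 0.58, limma adjusted p = 1.86e-05 and 0.015). A single one was called without any 1 of the 3 bulk libraries or sorted replicate 2. CD47, the signal that restrains phagocytosis, read 61.3, 60.9 and 63.6 against 67.3, 66 and 84.8 (log2 fold change -0.22, limma adjusted p = 0.313).

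Immediate-early genes were higher in sorted cells, with the most calls in that direction of the lists examined. These genes encode transcription factors such as FOS, JUN and EGR1, and feedback proteins such as the phosphatase DUSP1. Of 27 tested, 17 were lower in bulk and none was higher, where 6.48% of all genes tested were lower and 10.4% higher. The list's median log2 fold change was -0.97, and the sorted sum was 237% of bulk. The 17 were 13 without bulk replicate 2 or sorted replicate 2. The stretches upstream of 5 of these genes are shown because binding sites for CREB and ATF factors, which relay stimuli to them, are known in such promoters. Each runs from 250 bases before to 50 bases after the RefSeq start of transcription in GRCm38.p6, with the motif TGACG in capitals wherever it occurs on either strand. The 5 were taken from the most negative members of the list. EGR1 is not shown, although its log2 fold change of -2.69 was more negative than those of ATF3, DUSP1 and BTG2. It is also not among the genes counted with TGACG below, which can mean no match or no window. All 5 stretches shown hold the motif, so they do not show how common it is in the list. FOS lies at chr12:85473640-85473939 on the plus strand. FOSB lies at chr7:19309996-19310295, ATF3 at chr1:191183284-191183583, DUSP1 at chr17:26508423-26508722 and BTG2 at chr1:134079106-134079405, all on the minus strand.
FOS: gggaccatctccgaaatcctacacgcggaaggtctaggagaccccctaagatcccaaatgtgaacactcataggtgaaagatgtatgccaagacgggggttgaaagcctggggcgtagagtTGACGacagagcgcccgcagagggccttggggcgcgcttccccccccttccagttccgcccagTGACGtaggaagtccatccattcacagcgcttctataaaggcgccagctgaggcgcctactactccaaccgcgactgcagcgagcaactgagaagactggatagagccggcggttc
FOSB: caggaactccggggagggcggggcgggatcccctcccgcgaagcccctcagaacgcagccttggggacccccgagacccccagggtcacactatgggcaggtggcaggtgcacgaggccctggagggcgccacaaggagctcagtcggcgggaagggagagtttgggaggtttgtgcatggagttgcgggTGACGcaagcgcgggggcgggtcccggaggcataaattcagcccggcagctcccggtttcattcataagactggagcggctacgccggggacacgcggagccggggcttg
ATF3: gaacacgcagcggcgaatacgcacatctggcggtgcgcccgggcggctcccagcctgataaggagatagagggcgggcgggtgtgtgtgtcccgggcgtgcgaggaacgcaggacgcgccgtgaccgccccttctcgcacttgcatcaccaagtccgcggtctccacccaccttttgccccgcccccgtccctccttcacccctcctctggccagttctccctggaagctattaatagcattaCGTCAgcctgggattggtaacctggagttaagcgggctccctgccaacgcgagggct
DUSP1: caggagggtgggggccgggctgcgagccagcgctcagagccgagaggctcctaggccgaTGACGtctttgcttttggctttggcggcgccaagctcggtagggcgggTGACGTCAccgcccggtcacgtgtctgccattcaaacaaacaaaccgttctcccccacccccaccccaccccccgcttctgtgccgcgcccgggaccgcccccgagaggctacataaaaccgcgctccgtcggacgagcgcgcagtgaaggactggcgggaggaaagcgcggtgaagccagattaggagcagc
BTG2: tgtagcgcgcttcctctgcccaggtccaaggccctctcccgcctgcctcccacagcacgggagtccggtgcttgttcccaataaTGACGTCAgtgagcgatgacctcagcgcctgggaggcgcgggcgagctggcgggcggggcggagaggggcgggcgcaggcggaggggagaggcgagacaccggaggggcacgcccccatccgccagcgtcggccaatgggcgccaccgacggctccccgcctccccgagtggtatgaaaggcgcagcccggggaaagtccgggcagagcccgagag

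Of protein-coding genes whose mean level reached 10 scaled FPKM, FOS had the most negative log2 fold change on log2(scaled FPKM + 1). With a pseudocount of 0.1 that order changed, and TGOLN2 (-6.46) and the muscle gene CKM (-5.48) passed FOS (-4.94). It read 7.26, 4.38 and 12.9 scaled FPKM in bulk and 267, 246 and 189 in sorted libraries (log2 fold change -4.77, SE 0.32, limma adjusted p = 3.88e-05). FOSB, its close relative, read 1.35, 1.8 and 2.24 against 44.2, 34.9 and 24.2 (log2 fold change -3.63, SE 0.23, limma adjusted p = 2.59e-05). ATF3, a stress-induced member of the ATF family, read 9.96, 10.8 and 16.2 against 53.1, 87.5 and 85.6 (log2 fold change -2.51, limma adjusted p = 0.000302), with sorted replicate 1 the lowest sorted library. For FOS, FOSB and EGR1 the order was the opposite, and sorted replicate 1 was the highest. DUSP1, which dephosphorylates MAP kinases, read 13.6, 11.5 and 20.7 against 84, 101 and 75.3 (log2 fold change -2.46, limma adjusted p = 0.000179). EGR1 read 26.7, 15 and 20.6 against 204, 137 and 89.4 (log2 fold change -2.69, limma adjusted p = 0.00091), and BTG2, an antiproliferative protein, 12.3, 7.72 and 12 against 49, 58.5 and 57.8 (log2 fold change -2.28, limma adjusted p = 0.000112). In all 6 genes the lowest sorted library was above the highest bulk library. JUND, also of the AP-1 family, was not called, at 168, 155 and 159 in bulk and 129.7, 105 and 121 in sorted cells (log2 fold change 0.44, limma adjusted p = 0.0671). KLF6 and IER3, at higher levels, changed less, by -1.17 and -0.97 (limma adjusted p = 0.00151 and 0.0239).

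The motif was counted in the same window of every gene with an entry. Of the 27 genes, 21 had 30 windows, of which 19 (63.3%) held TGACG on either strand and 4 (13.3%) held the full palindrome TGACGTCA, which contains TGACG. Among the 17 genes lower in bulk, 14 had 17 windows, of which 13 (76.5%) held TGACG and 2 (11.8%) held TGACGTCA, those of DUSP1 and BTG2. Over all 32851 windows of 27025 genes, 20.8% held TGACG and 1.79% held TGACGTCA. A match in these letters is a description and not a site of binding.

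The same genes were read in the sh-B7-H3 (1) pair, whose libraries are separate. There 22 of 27 were lower in bulk (17.1% of all genes tested) and none higher, with a median of -1.40 against 0.03 over all genes. FOS read 6.16, 5.12 and 5.58 in bulk and 324, 310.4 and 418 in sorted libraries (log2 fold change -5.72, limma adjusted p = 1.10e-06), and its interaction was 0.95 (limma adjusted p = 0.319). FOSB read 0.319, 0.413 and 0.505 against 75.2, 69.6 and 107 (log2 fold change -5.89, limma adjusted p = 1.79e-06). The gap of FOSB was smaller in control tumors by 2.25 (SE 0.31, limma adjusted p = 0.0102), and it was the single gene of the list to pass that test. Few genes of other stress programs were called in control tumors. None of 12 heat shock genes was called by limma (1 at an unadjusted p below 0.05), with a median log2 fold change of -0.07, and HSPA8, a constitutive chaperone, read 673, 672 and 588 in bulk and 593, 835 and 876 in sorted cells (log2 fold change -0.24, limma adjusted p = 0.477). Of 10 genes of the unfolded protein and integrated stress responses, 2 were higher in bulk, XBP1 (0.52, limma adjusted p = 0.037) and CHAC1 (0.62, limma adjusted p = 0.0248), and DNAJB9 was lower (-0.79, limma adjusted p = 0.00427), all 3 named after their values were seen. Of 9 hypoxia genes, PDK1, a kinase that limits pyruvate oxidation, was lower (-0.58, limma adjusted p = 0.0464) and was also named after its values were seen. That call was lost without any 1 of bulk replicates 1 and 2 and sorted replicates 2 and 3, and the 2 higher unfolded protein genes were 0 without any 1 of the 3 bulk libraries or sorted replicate 2. In the sh-B7-H3 (1) pair more were called, as was so over all genes tested. Of all genes, 17.1% were lower in bulk and 21.1% higher there, against 6.48% and 10.4% in controls. In that pair 6 of 9 hypoxia genes were lower in bulk and none higher (median -0.75). Of 12 heat shock genes 4 were lower and 1 higher (median -0.20). Of 10 unfolded protein and integrated stress genes 4 were lower and 1 higher (median -0.38). None of these 3 lists had a gene past the interaction test with limma, where 1, 3 and 4 had an unadjusted p below 0.05.

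Skeletal muscle transcripts were higher in sorted control cells than in bulk. Muscle fibers express fast troponins, myosin light chains and creatine kinase at very high levels. All 11 genes tested of 15 were lower in bulk, against 6.48% of all genes tested. Of these 11, 5 passed the minimum through sorted libraries only. The median log2 fold change was -2.24 and the sorted sum 752% of bulk. CKM, muscle creatine kinase, read 0.0588, 0.404 and 0.0388 in bulk and 9.41, 7.31 and 13.8 in sorted libraries (log2 fold change -3.23, SE 0.23, limma adjusted p = 4.54e-05). TNNT3, a fast troponin, read 0.0918, 1.97 and 0.226 against 12.3, 12.5 and 19.8 (log2 fold change -3.29, limma adjusted p = 0.000785), and ACTA1, skeletal actin, 1.49, 8.22 and 3.27 against 24.1, 13.2 and 28 (log2 fold change -2.24, limma adjusted p = 0.0176). Bulk replicate 2 was the highest bulk library for all 3, and the groups did not overlap. The number of calls was 8 without bulk replicate 3 and 7 without the 2 libraries in which MIR6236 took over 50% of summed FPKM. In the sh-B7-H3 (1) pair the list went the other way, with a median of 1.54 over 14 genes tested. CKM there read 2.57, 78.6 and 18.7 in bulk and 3.84, 8.26 and 4.5 in sorted libraries (log2 fold change 1.5, limma adjusted p = 0.241). A single one of the 14, MYH1, named after its values were seen, passed in that pair, higher in bulk (2.63, limma adjusted p = 0.0123), and none passed the interaction test, where 13 had an unadjusted p below 0.05 with limma (for CKM -4.73, SE 1.14, limma adjusted p = 0.108). Which cells carried these transcripts was not tested.

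**Figure D4:**
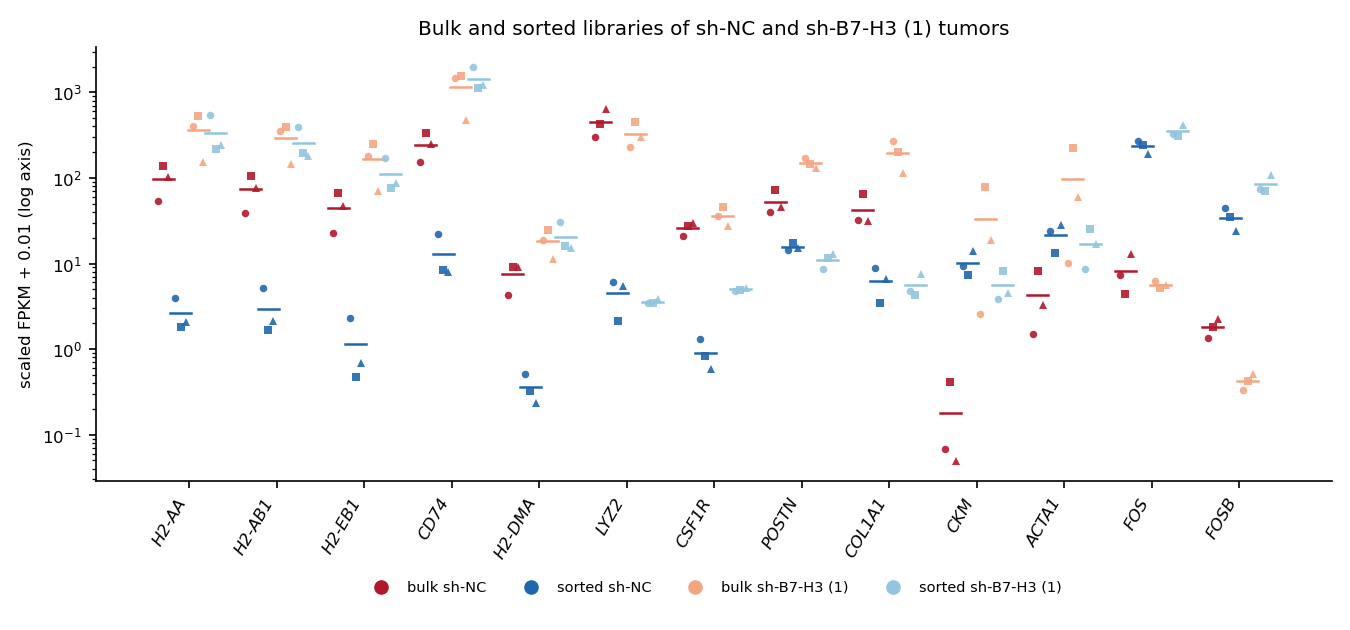
Scaled FPKM (log axis, 0.01 added) of MHC-II, macrophage, matrix, muscle and immediate-early genes in the bulk and sorted libraries of sh-NC and sh-B7-H3 (1) tumors, with replicates as points and group means as short lines. The marker shape gives the replicate (circle 1, square 2, triangle 3). The MHC-II genes lie far below bulk in sorted sh-NC cells and near bulk in sorted sh-B7-H3 (1) cells, LYZ2 and CSF1R fall in sorted cells of both tumors, and FOS and FOSB rise in sorted cells of both. CKM and ACTA1 are low in bulk sh-NC libraries and spread widely in bulk sh-B7-H3 (1) libraries.

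Over all genes the pairs were set side by side. In the sh-B7-H3 (1) pair, 2469 of 11688 genes were higher in bulk (21.1%) and 2000 were lower (17.1%). Of the 1187 genes higher in bulk control tumors, 1120 were tested there, 1032 had the same sign, 726 were called in the same direction (61.2% of the control calls and 29.4% of the sh-B7-H3 (1) calls) and 5 in the opposite one. Of the 740 lower genes, 733 were tested, 684 had the same sign, 375 were called in the same direction (50.7% and 18.8%) and 1 in the opposite one. Leukocyte, macrophage and endothelial lists had medians of 2.70, 4.05 and 2.07 in controls and 2.97, 3.87 and 2.02 in the sh-B7-H3 (1) pair. The fibroblast median was 0.80 against 1.84. POSTN was among the genes with a tested difference, at 172, 144 and 129 in bulk and 8.68, 11.7 and 12.9 in sorted sh-B7-H3 (1) libraries (interaction -1.98, SE 0.29, limma adjusted p = 0.0181). MSRB3, a methionine sulfoxide reductase, had a gap of -0.37 in controls and 0.64 in the other pair (interaction -1.01, limma adjusted p = 0.0451). PMM1, a phosphomannomutase, had 0.14 and -0.62 (interaction 0.75, limma adjusted p = 0.0451).

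**Figure D5:**
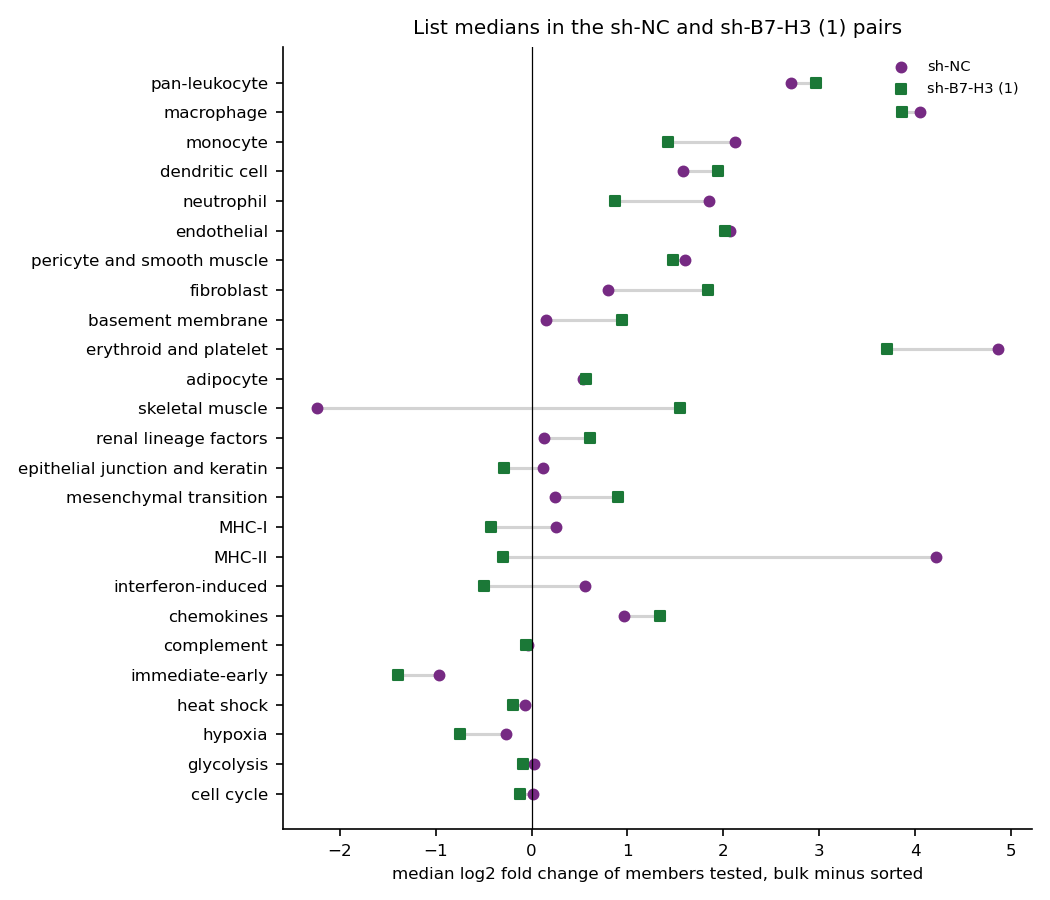
Median log2 fold change of the tested members of each list, bulk minus sorted (horizontal axis), in the sh-NC pair (purple circles) and the sh-B7-H3 (1) pair (green squares), joined by a grey line. The macrophage medians are 4.05 and 3.87, those of MHC-II genes are 4.22 and -0.30, and those of muscle genes are -2.24 and 1.54.

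Lists of growth and metabolism had calls in both directions, and most calls depended on single libraries. Over all genes tested, 10.4% were higher in bulk and 6.48% lower, so these small counts are not read as a result about the lists. Of 22 cell cycle genes, 3 were higher in bulk, the replication licensing factors MCM2, MCM3 and MCM5 (0.64, 0.59 and 0.66, limma adjusted p = 0.037, 0.037 and 0.0225), and 2 were lower, CCNB1 and BUB1, which act in mitosis (-0.70 and -0.53, limma adjusted p = 0.023 and 0.0411). The 3 higher genes were 0 without bulk replicate 2, bulk replicate 3 or sorted replicate 2, 1 without bulk replicate 1 or sorted replicate 3, and 6 without sorted replicate 1, and 0 on FPKM as deposited and scaled by the sum without MIR6236. The 2 lower ones were 0 without any 1 of the 3 bulk libraries or sorted replicate 2 and 0 on FPKM as deposited. Of 13 glycolysis genes, PFKL was higher (0.68, limma adjusted p = 0.0184). Of 15 genes of sterol and fatty acid synthesis, DHCR7 was higher (0.61, limma adjusted p = 0.0312) and HMGCS1 and IDI1 were lower (-0.53 and -0.69, limma adjusted p = 0.0213 and 0.0215). Of 19 lysosomal genes, TFEB and FLCN, regulators of lysosome production, were higher (0.61 and 0.50, limma adjusted p = 0.0209 and 0.0317). LAMP2, a lysosomal membrane protein, was lower, at 219.8, 200.3 and 226 in bulk and 379.9, 468 and 457 in sorted libraries (log2 fold change -1.01, limma adjusted p = 0.00519). Apart from LAMP2, the genes named here were chosen after their values were seen. Without bulk replicate 2, bulk replicate 3 or sorted replicate 2, no gene of glycolysis or sterol synthesis was called, and LAMP2 alone of the lysosomal genes kept its call. Of 82 ribosomal protein genes, 1 was called, of 49 histone genes 1, and of 36 genes of mitochondrial complex I 1. The shares of these last 3 lists are below those over all genes. They moved with the setting: without sorted replicate 1, 18 ribosomal protein genes and 13 complex I genes were lower in bulk, and on FPKM as deposited 10 histone genes were higher.

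Small structured RNAs varied widely between libraries of the same group, and most were not called between the groups. The library kit named in the labels selects polyadenylated RNA, and most small nucleolar RNAs (snoRNAs), which guide chemical modification of ribosomal RNA, lack a poly(A) tail. Of 39 snoRNA genes tested, a family looked up after its values were seen, 8 were higher in bulk and none lower. Over all genes tested, 10.4% were higher and 6.48% lower, and the median log2 fold change of the 39 was 3.35. Bulk replicate 3 was the highest bulk library in 37 of them and sorted replicate 2 the highest sorted library in 34. Their summed levels were 4578, 8956 and 35354 scaled FPKM in bulk and 172.0, 5814 and 722 in sorted libraries, so sorted replicate 2 lay above bulk replicate 1. With bulk replicate 3 and sorted replicate 2 set aside, a choice made after the values were seen, both bulk sums lay above both sorted sums. In that setting 17 of the 39 were called higher and none lower. SNORD32A read 1020.5, 1579 and 4849.6 in bulk and 0, 271 and 0 in sorted libraries (log2 fold change 8.26, SE 1.99, limma adjusted p = 0.0289). SNORA36B was listed at 0 in all 3 sorted libraries and read 17.5, 20.7 and 119 in bulk. The same 2 libraries held the highest shares of MIR6236, whose mature RNA is shown because this gene dominates the table. It lies at chr9:110281353-110281371 in GRCm38.p6 on the plus strand, within the gene at chr9:110281287-110281409, and its seed, bases 2 to 8, is in capitals.
mmu-miR-6236: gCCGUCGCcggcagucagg
None of 7 genes of the non-coding RNA list was called by limma (2 at an unadjusted p below 0.05), and the log2 fold change of MIR6236 was 2.42 (limma adjusted p = 0.303). RMRP and RPPH1, the RNA parts of the RNase MRP and RNase P enzymes, followed the same libraries, at 107, 269 and 1267 and 131, 233 and 1523 in bulk and 10.1, 902 and 7.65 and 3.17, 312 and 4.81 in sorted cells (limma adjusted p = 0.276 and 0.116).

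TGOLN2 came second after FOS among genes of that level lower in bulk. It read 2.22e-05, 0.000211 and 2.88 scaled FPKM in bulk and 25.3, 30.2 and 26.2 in sorted libraries (log2 fold change -4.16, limma adjusted p = 0.000858). Its product is a protein of the trans-Golgi network. A closely related gene, TGOLN1, exists in mice, and how reads were divided between the 2 is not given in the sources used here, so this value is uncertain.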

How the data were processed

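RNA-seq of 15 libraries was deposited as 1 gene table, and 6 libraries were compared here (3 bulk, 3 sorted, sh-NC), with 6 of sh-B7-H3 (1) as a further pair. The values deposited by the authors are FPKM, with reads aligned to mm10 per the labels. The aligner and counting tool are not given in the sources used here, and the labels and the methods name different library kits. Of 24917 entries, 26 with names turned into dates were dropped. Median-ratio factors, taken over 9872 genes at or above 1 FPKM throughout, rescaled each library, since MIR6236 took up to 79.7% of a library. A gene was tested when 3 or more libraries of the comparison had at least 1 scaled FPKM. With its mean-variance trend, limma 3.58.1 in R 4.3.3 was run on log2(scaled FPKM + 1), and p-values are two-sided and Benjamini-Hochberg adjusted over the genes tested. The script was tested on simulated data. Tables and sequences (RefSeq, GRCm38.p6) were handled with Python 3.11.15 and pandas 2.3.3, and figures were drawn with matplotlib 3.10.9.

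Named genes were the 12 most positive and 12 most negative log2 fold changes of changed genes with no overlap and a mean of at least 10 scaled FPKM, the defining genes and 4 highest-level genes of each of 47 lists, CD276, TSC2 and MIR6236, and the 3 largest and 3 smallest interactions. Members and lists were chosen with earlier results of these data known. Alternatives were other scalings, filters and pseudocounts, array weights, a replicate block, all 15 libraries in one fit, and leaving out libraries. Same-numbered bulk and sorted libraries deviated from their group means with correlations of 0.329, -0.047 and 0.005, so the numbers were not taken to pair them. Read totals are not given, so precision was taken from replicate spread. A second table of the authors, holding a subset of genes on a log2 scale, was not used here.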

Additional observations from a re-analysis of the deposited data

Results flagged for a closer look

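The gap between bulk and sorted libraries differed between sh-NC and sh-B7-H3 (1) tumors, by the interaction test of that difference over 12 libraries, for 56 genes, of which 17 are given here. Of the 56, the gap lay more toward bulk in sh-NC for 30 and in sh-B7-H3 (1) for 26. Most of the 17 are of the first kind, so they do not show that balance. Values are the sh-NC gap minus the sh-B7-H3 (1) gap in log2 units with limma adjusted p. The gap of MHC-II genes was larger in sh-NC tumors: CD74 4.67 (adjusted p = 0.0192), H2-AA 4.64 (adjusted p = 0.0192), H2-AB1 4.05 (adjusted p = 0.0327), H2-EB1 3.91 (adjusted p = 0.0451), H2-DMA 2.75 (adjusted p = 0.0341) and H2-DMB2 2.44 (adjusted p = 0.0421). Of 6 mast cell genes, 3 proteases passed with a larger gap there, TPSB2 at 2.10 (adjusted p = 0.0085), CMA1 at 1.55 (adjusted p = 0.0165) and CPA3 at 1.31 (adjusted p = 0.0085), while MCPT4 at 1.38 (adjusted p = 0.108) and MS4A2 at -2.55 (adjusted p = 0.18) did not. The myeloid genes CHIL3, CLEC4D and TREM1 stood at 1.47, 0.96 and 0.88 (adjusted p = 0.0461, 0.0292 and 0.0451), and the protease CTSS at 2.61 (adjusted p = 0.0085). CPA3, CMA1 and CHIL3 reached 1 scaled FPKM only in bulk sh-NC libraries, so they entered this test only by being high there. In the sh-B7-H3 (1) pair they were too low to be tested, with means of 0.0747, 0.141 and 0.263 in bulk and 0.00758, 0.0321 and 0 in sorted libraries. FOSB, lower in bulk in both tumors, was at 2.25 (adjusted p = 0.0102), and PMM1 at 0.75 (adjusted p = 0.0451). The matrix gene POSTN was at -1.98 (adjusted p = 0.0181) and MSRB3 at -1.01 (adjusted p = 0.0451). When the libraries in which MIR6236 took over 50% of summed FPKM were left out, 18 genes passed this test. CHIL3, TREM1, CTSS, H2-DMA and H2-DMB2 stand outside the naming rule and were chosen after their values were seen.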

How the results depend on the processing

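Counts of changed genes depended strongly on the setting. The 1927 genes changed in control tumors (1187 higher, 740 lower) were 652 (520 and 132) on FPKM as deposited, 1132 (733 and 399) scaled by the sum without MIR6236, 1279 (642 higher) with 1 scaled FPKM asked of every library, 3083 (1351 lower) in a fit of all 15 libraries and 6052 (3338 and 2714) with array weights. Quantile normalization gave 914 higher and 1305 lower. Asking for a change above 1 log2 unit left 545 (487 and 58). An alternative chosen after seeing the data, leaving out bulk 3 and sorted 2, in which MIR6236 took over 50% of summed FPKM, left 544 (498 and 46). Leaving out 1 library gave 691 to 4442 changed genes (573 to 2517 higher, 118 to 1925 lower): 913 without bulk 1, 691 without bulk 2, 931 without bulk 3, 732 without sorted 2 and 4442 without sorted 1. The 4469 genes of the sh-B7-H3 (1) pair were 755 (604 and 151) above 1 log2 unit. That pair had 898 higher and 3035 lower on FPKM as deposited, and 1006 lower scaled by the sum without MIR6236. Leaving out 1 of its libraries gave 2343 to 4285 (1463 to 2419 higher, 880 to 1935 lower), with 2343 without bulk 1 and 2676 without sorted 1. The 56 interaction genes were 128 on FPKM as deposited, 25 with a pseudocount of 0.1, 13 with the filter in every library, 20 with the filter on the mean, 36 in the fit of all 15 libraries, 2145 with array weights, 18 without the libraries above 50% MIR6236 and 15 to 105 with 1 library left out. Without scaling of the deposited values, the median over all genes went from 0.04 to -0.09 in controls, and in the sh-B7-H3 (1) pair from 0.03 to -0.23, and to 0.16 scaled by the sum without MIR6236. The interaction median moved from -0.01 to 0.12 and -0.12. With a replicate block there were 1997 changed genes in controls (1266 higher, 731 lower) and 24 by interaction. Since the numbers were not taken to pair the libraries, the block is given here alone. The cause of these shifts was not tested.

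Of 103 called genes given in the text, all kept their direction in every one of the 18 alternatives that tested them, and 68 also kept their call there. An alternative with a stricter filter did not test every gene, so some genes were not compared under all 18. Genes and list medians near 0 did not keep their sign. CD276 was 0.0013 scaled by the sum without MIR6236, 0.16 with array weights and -0.21 to 0.26 with 1 library left out. EPCAM was 0.42 without the libraries above 50% MIR6236 and -0.23 to 0.25 with 1 left out, KRT8 -0.16 to 0.066 with 1 left out, FN1 0.12 with array weights and -0.49 to 0.31 with 1 left out, PAX8 -0.13 as deposited and -0.18 to 0.18 with 1 left out, PMM1 -0.000891 as deposited, RMRP -0.56 with array weights and MIR6236 0 after quantile normalization. Among list medians, FPKM as deposited gave mesenchymal -0.075, unfolded protein -0.014, glycolysis -0.11, TSC-mTORC1 -0.12 and cell cycle -0.12. Quantile normalization gave epithelial -0.029, checkpoint -0.019, lysosome 0.017 and non-coding RNA 0. Array weights gave complement 0.17 and unfolded protein -0.14, and the latter was -0.056 to 0.20 with 1 library left out. The filter in every library gave dendritic cell -0.19, mast cell -1.94 and mesenchymal -0.14, and no filter gave nephron -0.0028 and lysosome 0.00013. Without read totals, counting error of low values is unknown.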

Other observations

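Several genes outside the lists, all chosen after their values were seen, had large gaps in control tumors. Among transcripts linked to macrophage function, ARG1, the arginase that consumes arginine, read 35.2, 24.8 and 48.9 scaled FPKM in bulk and 0.736, 0.363 and 0.498 in sorted libraries (log2 fold change 4.56, limma adjusted p = 1.17e-05). CTSS, a lysosomal protease of antigen-presenting cells, read 126, 160.4 and 184 against 5.12, 6.15 and 5.71 (log2 fold change 4.55, limma adjusted p = 5.32e-06). MMP12 and MMP13, enzymes that degrade elastin and collagen, changed by 3.97 and 3.03 (limma adjusted p = 9.30e-06 and 5.62e-06), and the cytokine gene IL1B by 2.73 (limma adjusted p = 5.32e-06). GPIHBP1, which carries lipoprotein lipase across capillary endothelium, changed by 4.52 (limma adjusted p = 7.02e-06). Of these genes, only CTSS also reached the minimum in sorted libraries, so the others entered the test only by being high in bulk. In the sh-B7-H3 (1) pair the log2 fold changes of these 6 genes were 2.82, 1.95, 2.60, 2.03, 2.14 and 3.95.

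Among genes lower in bulk, CYR61, a matrix protein gene that responds to YAP and serum, read 41.4, 60.6 and 71.8 in bulk and 163, 189 and 138 in sorted libraries (log2 fold change -1.50, limma adjusted p = 0.00375). SGK1, a kinase induced by glucocorticoids and osmotic stress, read 13.9, 15.2 and 18.6 against 31, 45.9 and 38.1 (log2 fold change -1.21, limma adjusted p = 0.00346). HIF1A, the oxygen-regulated factor, read 72.2, 70.7 and 70.02 against 158, 146 and 116 (log2 fold change -0.96, limma adjusted p = 0.0054), and RBM3, a cold-induced RNA-binding protein, 210.2, 199 and 236 against 303, 514 and 536 (log2 fold change -1.02, limma adjusted p = 0.0266). In the sh-B7-H3 (1) pair their log2 fold changes were -1.69, -1.35, -0.86 and -0.90. These values rest on the 6 libraries of each pair and, apart from CTSS, no test between the pairs is given for them.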
